A study of Drosophila melanogaster with 8 samples.

Results

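Secreted and membrane proteins enter the endoplasmic reticulum (ER) through a translocation channel and leave it in coated vesicles, and 36 genes of that route were followed here in wing discs of Drosophila melanogaster. The genes were taken by symbol, or by a synonym of the symbol, from the 18354 gene rows of the deposited table. A symbol matched for 35 of them, and Spase18-21 matched as a synonym of twr. They fell into the translocon with its associated proteins (6 genes), the signal recognition particle (SRP) and its receptor (8), signal peptidase (4), oligosaccharyltransferase (3), the COPII coat (7) and the COPI coat (8).

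Libraries labelled ecd-RNAi (nub>mRFP; ecd-RNAi) came from larvae in which the nub-Gal4 driver expressed the red fluorescent protein mRFP and an RNAi construct against ecd, and control libraries (nub>mRFP) from larvae with the driver and mRFP only. There were 4 biological replicates of each, every one a pool of 150 discs of third-instar larvae dissected 7 days after egg laying at 25 °C, with total RNA sequenced after rRNA removal with a stranded kit. Since nub-Gal4 is active in the wing pouch and part of the hinge, each disc also held cells without the RNAi. The gene ecd encodes a protein needed for pre-mRNA splicing and for production of the hormone ecdysone, and the title of the series names the stress transcription factor Xrp1 and a failing spliceosome.

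A ribosome that begins to make a secreted protein is bound by SRP, delivered to the SRP receptor and docked on the Sec61 channel. There the signal peptide is removed by signal peptidase and sugar chains are added by oligosaccharyltransferase. COPII vesicles then carry cargo from the ER to the Golgi, and COPI vesicles return escaped ER proteins and recycle Golgi enzymes. Wing disc cells use the route for morphogens, receptors, adhesion proteins and extracellular matrix, and in Drosophila the bZIP factor CrebA is known as an activator of many genes of the early secretory route.

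Values are the deposited normalized counts, read estimates per gene that the authors scaled per library. They summed to between 27400000 and 32620000 in libraries labelled ecd-RNAi and between 35110000 and 37880000 in control libraries. Ribosomal RNA made up 26.6% to 35.2% of the sum in libraries labelled ecd-RNAi and 48.9% to 52.9% in control libraries. The targeted gene was measured first: ecd stood at 1416, 1208, 1307 and 1462 normalized counts in libraries labelled ecd-RNAi, against 1052, 1015, 1048 and 998 in control libraries. It was thus higher where RNAi was labelled (log2 fold change 0.39, SE 0.06, limma adjusted p = 0.000245), which goes against the label. Reads from the RNAi hairpin cannot be told apart from ecd mRNA in a table per gene, so this value does not measure the knockdown, and directions below are stated for libraries as labelled. The discs carried their defining genes: nub, vg, sd, ap and 9 other wing disc markers were all measured, at a summed 70550 to 75140 normalized counts in libraries labelled ecd-RNAi and 97500 to 101700 in control libraries, with 10 of the 13 lower and 2 higher. Of all genes tested, 31.7% were lower and 30.8% higher by the same limma test. In bulk discs fewer cells of a type and less RNA per cell cannot be told apart.

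All 36 genes were lower in libraries labelled ecd-RNAi. Each passed the test across all genes (limma on log2(normalized count + 1), Benjamini-Hochberg adjusted p under 0.05), and 0 rose, against a background in which 31.7% of the 9380 genes tested were called lower, 30.8% higher and thus 62.5% in either direction. With quantile normalization 31 of the 36 were called lower and Ost48 and beta'COP turned to slightly positive values. Among the 5201 protein-coding genes tested whose mean level lay in the range of these 36, 41.3% were lower. The median log2 fold change of the 36 was -0.38, beside 0.00 for all genes tested, and the values ran from -1.03 for Sec61alpha to -0.12 for Ost48. In 35 of the 36 the highest of the 4 libraries labelled ecd-RNAi lay below the lowest control library, which held for 29.2% of all genes tested; Ost48 was the exception. All 36 were measured well above the low end of the table, between 271 and 11337 normalized counts in any library.

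**Figure D1:**
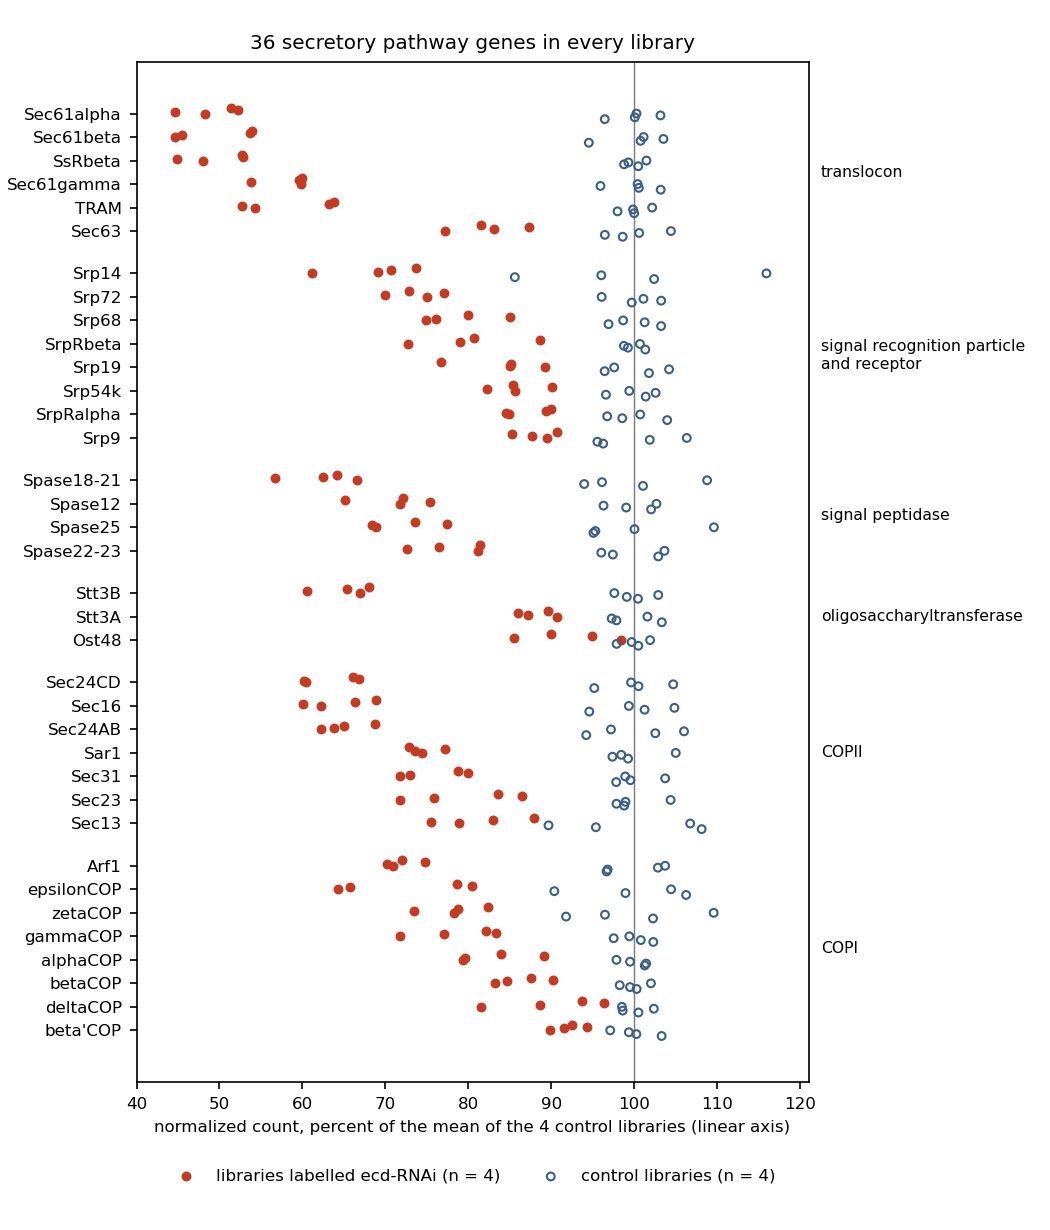
Normalized count of each gene in every library, as percent of its mean in the 4 control libraries (horizontal axis, linear, starting at 40), with 1 row per gene grouped by complex; filled points are libraries labelled ecd-RNAi, open points control libraries, spread vertically only for legibility. Filled points lie left of the open ones in every row except Ost48, farthest left for Sec61alpha, Sec61beta and SsRbeta.

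The translocon had the largest changes, with a median log2 fold change of -0.90 over 6 genes. Sec61alpha (FBgn0086357, BDGP6 chromosome 2L, 6477182 to 6480575, minus strand), the pore-forming subunit of the channel, stood at 5649, 5736, 4909 and 5298 normalized counts in libraries labelled ecd-RNAi, against 11019, 11337, 10997 and 10599 in control libraries. Sec61beta (chromosome 2R, 14618771 to 14619681), a small tail-anchored subunit, stood at 1149, 1144, 970 and 952, against 2154, 2205, 2146 and 2013 in control libraries. The groups were far apart for both genes, which fell to 49.1% and 49.5% of the control mean, with log2 fold changes of -1.03 (SE 0.05, limma adjusted p = 7.69e-08) and -1.02 (SE 0.07, limma adjusted p = 6.31e-07). Only 4.73% of the genes tested had a log2 fold change as low as that of Sec61alpha. Sec61gamma (chromosome X, 19643327 to 19644518), the subunit that clamps the channel, fell less in value, at 1289, 1279, 1155 and 1286 against 2158, 2061, 2161 and 2217 in control libraries (58.3% of control, log2 fold change -0.78, SE 0.05, limma adjusted p = 2.335e-07).

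Genes of this set for proteins that sit beside the channel were lower too, by unequal amounts. Trp1, the fly Sec62, given below with the other secretory lists, was not called (log2 fold change -0.02). SsRbeta, the beta subunit of the translocon-associated TRAP complex (chromosome 3L, 16129617 to 16130983), stood at 2066, 2070, 1758 and 1883 normalized counts in libraries labelled ecd-RNAi, against 3976, 3891, 3871 and 3938 in control libraries (log2 fold change -1.01, SE 0.05, limma adjusted p = 1.08e-07). TRAM, a membrane protein that contacts nascent chains in the channel, averaged 2739 ± 273 in libraries labelled ecd-RNAi and 4682 ± 80.0 in control libraries (SD, n = 4 each; log2 fold change -0.78). Its libraries labelled ecd-RNAi split into a higher pair, replicates 1 and 2 at 2988 and 2960, and a lower pair, replicates 3 and 4 at 2469 and 2541. Sec63, the J-domain protein that recruits the chaperone BiP to the channel, changed least of the 6, at 1819 ± 92.7 against 2211 ± 74.8 in control libraries (SD, n = 4 each; log2 fold change -0.28, SE 0.04, limma adjusted p = 0.000294); its exons overlap an antisense RNA gene, and strand use is not stated. Summed over the 6 genes, the translocon took 914 ± 43.2 per 1000000 protein-coding normalized counts in libraries labelled ecd-RNAi and 1642 ± 28.5 in control libraries (SD, n = 4 each), that is, 55.6% of control.

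**Figure D2:**
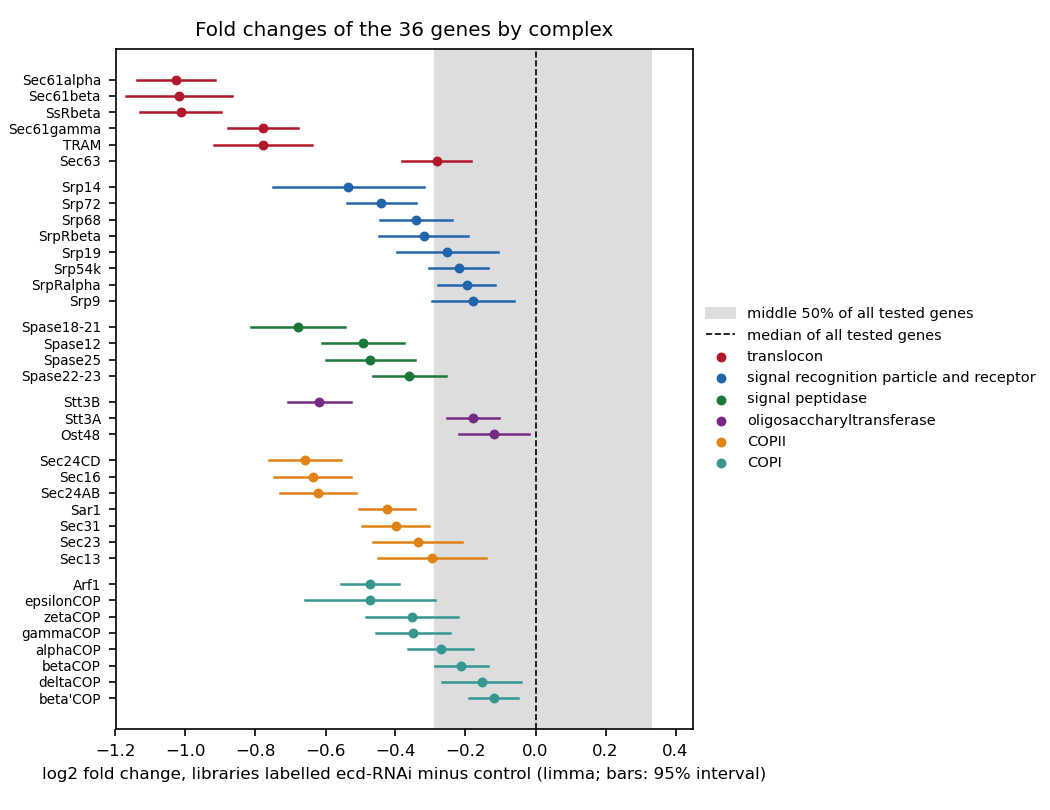
Log2 fold change of each gene, libraries labelled ecd-RNAi minus control (horizontal axis), with its 95% interval from the limma fit, coloured by complex; the grey band spans the middle 50% of all tested genes and the dashed line is their median. The intervals of the 36 genes all lie below 0, and 5 of the 6 translocon genes lie between -1.03 and -0.78.

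Signal recognition genes changed by smaller amounts, with a median log2 fold change of -0.29 over 8 genes and a range from -0.54 to -0.18. Srp54k, the GTPase that binds the signal peptide, stood at 1834, 1935, 1769 and 1840 normalized counts in libraries labelled ecd-RNAi, against 2136, 2204, 2076 and 2179 in control libraries (log2 fold change -0.22, SE 0.04, limma adjusted p = 0.000546). The groups did not overlap, and the mean was 85.9% of control. Srp68 and Srp72, which form a heterodimer on the SRP RNA, fell by 0.34 and 0.44 on the log2 scale, and Srp19, an assembly protein of the particle, by 0.25. The Alu-domain proteins Srp9 and Srp14, known in mammals for the pause in elongation, fell by 0.18 and 0.54. Srp14 scattered widely, at 326, 314, 306 and 271 in libraries labelled ecd-RNAi against 514, 426, 379 and 454 in control libraries; its exons overlap CG34008 on the opposite strand. Of the receptor, the GTPase SrpRalpha fell by 0.20 and its membrane anchor SrpRbeta by 0.32; SrpRalpha was not called with quantile normalization (log2 fold change -0.06).

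The RNA of the particle went the other way. It was looked up after the values had been seen, because Srp54k, Srp19 and the other proteins assemble on it. The table has 7SL RNA in 2 rows (7SLRNA:CR32864 and 7SLRNA:CR42652) that hold identical values, so the copies cannot be told apart. Each row stood at 1013314, 1085140, 956582 and 884427 normalized counts in libraries labelled ecd-RNAi, against 531248, 447614, 502597 and 505718 in control libraries. Every library labelled ecd-RNAi was above every control library, by 1.98-fold in the means (log2 fold change 0.99, SE 0.14, limma adjusted p = 0.000112). The 6 SRP protein genes summed to 5349 ± 180 normalized counts in libraries labelled ecd-RNAi and 6632 ± 138 in control libraries (SD, n = 4 each), a ratio of 0.807. Whether the authors' counting split reads between the 2 rows or gave them to both cannot be told, so the share of 7SL in the library is uncertain. Other RNA classes shifted as well. Annotated non-coding RNA apart from 7SL, ribosomal, small nuclear and small nucleolar RNA made up 1.87% to 2.12% of all signal in libraries labelled ecd-RNAi and 0.925% to 1.08% in control libraries. On the same scale, the 2 rows of 7SL summed to 6.21% to 7.11% in libraries labelled ecd-RNAi and 2.37% to 2.86% in control libraries. Both shares were higher in libraries labelled ecd-RNAi, so the direction of the share was not particular to 7SL. A share also depends on the other classes. Ribosomal RNA had a smaller share in libraries labelled ecd-RNAi, and protein-coding genes took 48.2% to 55.5% there and 41.8% to 45.3% in control libraries. These shares are on another scale than the 1.98-fold difference in normalized counts. Whether the rise was larger in 7SL was not tested, nor was the part in it of the shift in other RNA classes.

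**Figure D3:**
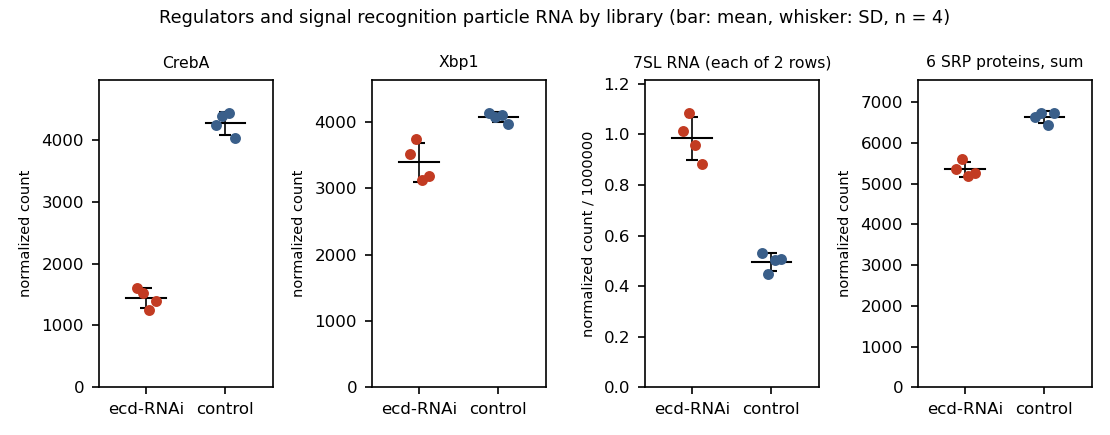
Normalized counts per library (vertical axes from 0, 7SL RNA divided by 1000000) of CrebA, Xbp1, 7SL RNA and the sum of 6 SRP protein genes; points are libraries, the bar is the mean and the whisker the SD over 4 libraries, ecd-RNAi left and control right. CrebA and the SRP protein sum are lower in libraries labelled ecd-RNAi, while 7SL RNA is 1.98-fold higher.

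The 4 signal peptidase genes all fell, with log2 fold changes from -0.68 to -0.36 and a median of -0.48. Spase18-21 (twr, FBgn0262801, chromosome 3R, 6657882 to 6659442), the catalytic subunit, stood at 1275, 1241, 1126 and 1322 normalized counts in libraries labelled ecd-RNAi, against 2161, 1910, 1867 and 2008 in control libraries (log2 fold change -0.68, SE 0.06, limma adjusted p = 4.88e-06). All 4 of its libraries labelled ecd-RNAi were well below the lowest control. The other subunits, Spase12, Spase25 and Spase22-23, had means at 71.1%, 72.1% and 77.9% of control. Exons of all 4 genes overlap a gene on the opposite strand, so their values are uncertain to that extent. Over all 36 genes, the 14 with such an overlap on either strand had a median log2 fold change of -0.47 and the 22 without had -0.31.

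The oligosaccharyltransferase genes were uneven. Stt3A and Stt3B are alternative catalytic subunits; in mammals the first acts on chains still entering the channel and the other also on completed ones. Stt3B stood at 3862, 3716, 3440 and 3804 normalized counts in libraries labelled ecd-RNAi, against 5544, 5845, 5630 and 5706 in control libraries (log2 fold change -0.62, SE 0.04, limma adjusted p = 5.69e-07). Stt3A stood at 5434, 5214, 5292 and 5501, against 6162, 5901, 5935 and 6267 in control libraries (log2 fold change -0.18, SE 0.03, limma adjusted p = 0.000996), and it was not called with quantile normalization (log2 fold change -0.06). Neither gene's groups overlapped, and the gap was wider for Stt3B. Exons of Stt3B overlap PQBP1 on the opposite strand and those of Stt3A overlap no other gene. The values of Stt3B, and its ratio to Stt3A, are uncertain to that extent.

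The log2 ratio of Stt3A to Stt3B within a library averaged 0.53 ± 0.06 in libraries labelled ecd-RNAi and 0.09 ± 0.06 in control libraries (SD, n = 4 each). It was higher in every library labelled ecd-RNAi than in any control. The difference of 0.44 gave p = 0.0286 in a two-sided exact permutation test, the smallest that the 70 arrangements of 4 against 4 allow, and an adjusted p of 0.0571 over the 2 paralog ratios tested by the exact test, which misses 0.05. Ost48, a non-catalytic subunit, changed least of all 36, at 2575, 2715, 2448 and 2815 in libraries labelled ecd-RNAi against 2916, 2852, 2800 and 2875 in control libraries. Its replicate 4 labelled ecd-RNAi lay above control replicate 3, and its limma adjusted p of 0.0397 (log2 fold change -0.12) was over 0.05 in 10 of 16 alternative settings: among them were the authors' deposited table (adjusted p = 0.0518) and 6 of the 8 fits that left out a library, with adjusted p between 0.0551 and 0.103 without ecd-RNAi replicate 1 or 3 or any control replicate.

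In the COPII coat all 7 genes fell, with a median log2 fold change of -0.42. The largest changes were in cargo adaptors and the scaffold of exit sites. Sec24CD stood at 2599, 2628, 2367 and 2379 normalized counts in libraries labelled ecd-RNAi, against 3919, 4119, 3954 and 3744 in control libraries (log2 fold change -0.66, SE 0.05, limma adjusted p = 9.31e-07). Sec24AB, its paralog, stood at 1135, 1073, 1054 and 1028, against 1605, 1750, 1693 and 1555 in control libraries (log2 fold change -0.62, SE 0.05, limma adjusted p = 1.94e-06). The means of Sec24CD and Sec24AB were 63.4% and 65.0% of control, and neither gene's groups overlapped. The log2 ratio of Sec24AB to Sec24CD was -1.22 ± 0.05 in libraries labelled ecd-RNAi and -1.25 ± 0.03 in control libraries (SD, n = 4 each), and these groups overlapped (difference 0.04, SE 0.03, two-sided exact permutation p = 0.286, adjusted p also 0.286). Exons of both genes overlap an antisense RNA gene.

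Sec16, the scaffold that organises ER exit sites, averaged 2874 ± 176 normalized counts in libraries labelled ecd-RNAi and 4464 ± 191 in control libraries (SD, n = 4 each; log2 fold change -0.64, SE 0.05, limma adjusted p = 1.84e-06). Sar1, the GTPase that starts coat assembly, fell by 0.42 on the log2 scale, to 74.5% of control. Sec31, Sec23 and Sec13 were at 75.9%, 79.4% and 81.3% of control; Sec23 is the partner of Sec24 and activates the GTPase of Sar1, Sec31 and Sec13 build the outer cage, and Sec13 is also part of the nuclear pore. Of the 7, Sec13 came closest to overlap, with its highest library labelled ecd-RNAi at 1580 and its lowest control at 1611.

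The COPI genes had a median log2 fold change of -0.31. Arf1 (FBgn0010348, chromosome 3L, 22868380 to 22872231, minus strand), the GTPase that recruits the coat, stood at 6789, 7051, 6619 and 6690 normalized counts in libraries labelled ecd-RNAi, against 9780, 9697, 9126 and 9115 in control libraries (log2 fold change -0.47, SE 0.04, limma adjusted p = 1.97e-06). It fell to 72.0% of control with tight replicates. Exons of Arf1 overlap CG11109 and an antisense RNA gene on the opposite strand, and those of epsilonCOP overlap Phf5a there. Of the outer-layer subunits, epsilonCOP fell by 0.47 and alphaCOP by 0.27, while beta'COP was at 3929, 4002, 3884 and 3816 against 4123, 4218, 4257 and 4386 in control libraries. That is a log2 fold change of -0.12 for beta'COP (SE 0.03, limma adjusted p = 0.00781), without overlap of the groups, but the value was 0.01 and not called with quantile normalization.

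Of the adaptor layer, zetaCOP and gammaCOP both fell by 0.35 on the log2 scale, betaCOP by 0.21 and deltaCOP by 0.15. The call for deltaCOP (limma adjusted p = 0.0228) was lost without ecd-RNAi replicate 3 (adjusted p = 0.0529), without control replicate 2 (adjusted p = 0.0566) and with quantile normalization (adjusted p = 0.558). Summed over the 8 genes, COPI took 1647 ± 29.6 per 1000000 protein-coding normalized counts in libraries labelled ecd-RNAi and 1994 ± 21.9 in control libraries (SD, n = 4 each), 82.6% of control. The same share of control was 73.0% for COPII, 72.8% for signal peptidase, 84.3% for SRP with its receptor and 81.9% for the 3 oligosaccharyltransferase genes. These summed shares describe the complexes, and no test between complexes was made.

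The paralog ratios and summed shares above were not divided by length. Levels of single genes were here set side by side per length, as normalized count per kb of the median annotated transcript. On that scale the level of Arf1 was the highest of the 36 genes in both groups (4546 in libraries labelled ecd-RNAi and 6316 in control libraries), followed by Sec61alpha (2537 and 5164), and Sec24AB was the lowest (231 and 355). The channel subunits were unequal, with Sec61gamma at 1872 and 3213 and Sec61beta at 1330 and 2689 per kb. SRP proteins lay lower than the translocon apart from Sec63, between 391 and 915 per kb in libraries labelled ecd-RNAi and between 530.2 and 1066 in control libraries. Across the 36 genes the log2 fold change went with the control level per kb at Pearson r = -0.44 and Spearman rho = -0.33, a description over genes that share the same libraries, in which the control level is itself a term of the fold change. With the control mean normalized count, not divided by length and also a term of the fold change, the values were r = -0.21 and rho = -0.06. With transcript length they were r = 0.18 and rho = 0.20. The log2 fold change had little relation to the largest number of annotated introns (r = -0.06, rho = -0.11). Genes with 0 or 1 intron had a median of -0.27, those with 2 or 3 introns -0.46 and those with 4 or more -0.41.

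**Figure D4:**
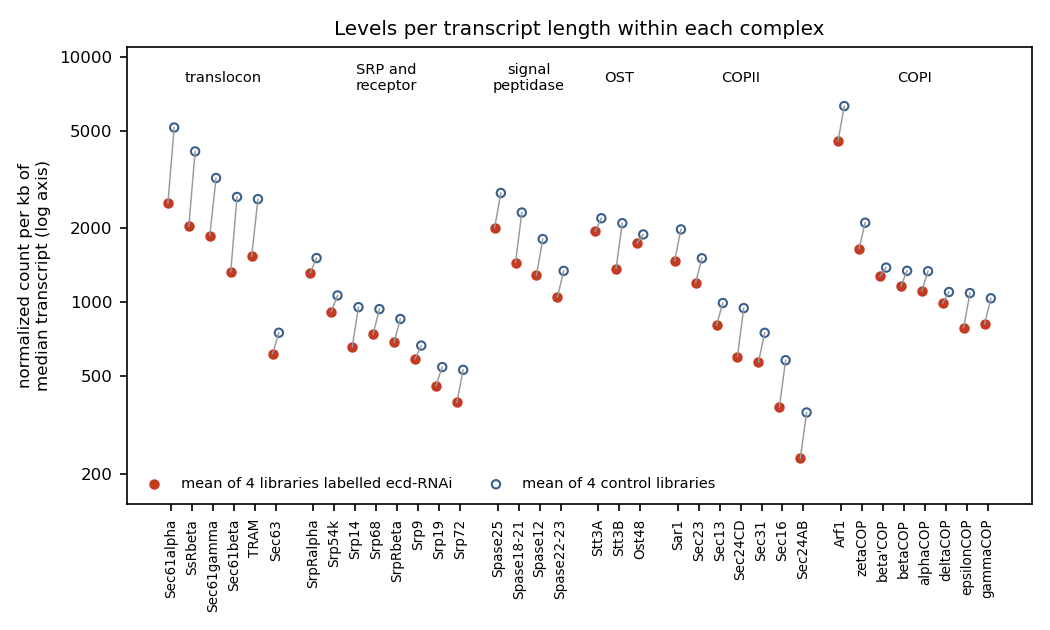
Mean normalized count per kb of the median annotated transcript for each gene (vertical log axis), grouped by complex (OST, oligosaccharyltransferase) and ordered by control level; filled points are means of 4 libraries labelled ecd-RNAi, open points means of 4 control libraries. Arf1 and Sec61alpha lead, and the lines joining the means are steepest in the translocon apart from Sec63.

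On the deposited scale, the 4 libraries labelled ecd-RNAi were not alike in these genes. The median over the 36 genes, relative to the control mean, was -0.34, -0.33, -0.44 and -0.47 on the log2 scale in replicates 1 to 4, beside 0.02, -0.01, -0.02 and 0.01 in control replicates 1 to 4. Within the group labelled ecd-RNAi, replicate 3 held the lowest value for 17 genes and replicate 4 for 14, and replicate 2 held the highest for 19. With any 1 of the 8 left out, between 34 and 36 of the 36 genes were still called lower. Fold changes in the authors' deposited table differed from these by at most 0.009 on the log2 scale, and that table calls 35 of the 36 lower, where 23.4% of its 12213 gene rows with an adjusted p were called lower.

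The regulators of the route were lower too. CrebA stood at 1602, 1528, 1249 and 1391 normalized counts in libraries labelled ecd-RNAi, against 4236, 4386, 4431 and 4019 in control libraries. Control was thus 2.96-fold higher, with no overlap (log2 fold change -1.57, SE 0.07, limma adjusted p = 4.92e-08). Xbp1, the bZIP factor of the unfolded protein response, averaged 3393 ± 291 in libraries labelled ecd-RNAi and 4072 ± 74.1 in control libraries (SD, n = 4 each; log2 fold change -0.27, SE 0.05, limma adjusted p = 0.00186); the spliced and unspliced forms of its mRNA are not separated in a table per gene.

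Genes around the complexes were mostly lower as well, beside 31.7% lower and 30.8% higher among all genes tested. Of 10 other oligosaccharyltransferase, TRAP and translocon-associated genes 9 fell and 0 rose (median log2 fold change -0.49): the TRAP subunit gene CG5885 fell by 0.89, the ER chaperone BiP (Hsc70-3) by 0.85 and the TRAP subunit gene Tapdelta by 0.82, while Trp1, the fly Sec62, was at 1445, 1569, 1379 and 1434 normalized counts in libraries labelled ecd-RNAi, against 1485, 1485, 1473 and 1445 in control libraries, with overlapping groups (log2 fold change -0.02, limma adjusted p = 0.755). Of the 10 genes of the ER membrane protein complex, an insertase for membrane proteins, 9 fell and 0 rose (median -0.33), led by EMC3, EMC5 and EMC2A at -0.62, -0.54 and -0.53. The remaining gene, EMC7, had a log2 fold change of 0.17 (limma adjusted p = 0.0508) and was called higher after rescaling to the protein-coding total. Of 11 cargo receptor genes 9 fell and 0 rose (median -0.37), among them the lectin gene ergic53 (-0.60), loj (-0.52) and Surf4 (-0.41).

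Genes for tethers, SNAREs and the COPI cycle were more mixed, while clathrin and adaptor coat genes were mostly lower. Of 16 genes for ER-to-Golgi tethers and SNAREs 8 fell and 3 rose (median -0.15). The Golgi matrix gene Grasp65 fell by 0.65, the tether subunit gene Trs33 by 0.56 and GM130 by 0.55. The genes that rose were Bet3 (0.37), Syx5 (0.30) and Ykt6 (0.23), the last not called with quantile normalization or after recentring on the median. Of 12 genes of the COPI cycle 8 fell and 1 rose (median -0.25): Arf102F fell by 0.63 and garz, an exchange factor for Arf1, by 0.46, while Zw10, a tether subunit that also acts at kinetochores, rose by 0.47. Of 13 clathrin and adaptor coat genes 11 fell and 0 rose (median -0.25), with AP-2mu at -0.38, Clc at -0.34 and cm at -0.33. Of all genes tested 31.7% were lower and 30.8% higher, and 41.3% were lower among protein-coding genes with mean levels in the range of the 36. Set beside these, the shares of the lists are descriptions, and no test between lists was made.

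**Figure D5:**
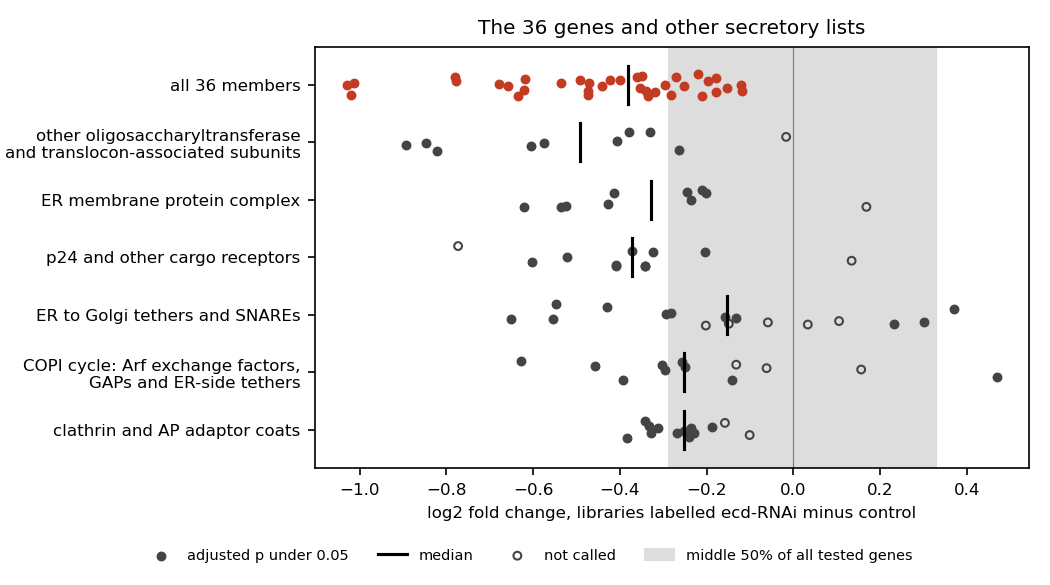
Log2 fold change, libraries labelled ecd-RNAi minus control (horizontal axis), of the 36 genes and of 6 other secretory lists, 1 point per gene with vertical spread for legibility; filled points passed the test, open points did not, the black bar is the list's median and the grey band the middle 50% of all tested genes. The 36 genes are all filled and below 0, and points above 0 that passed appear in this fit only among tethers, SNAREs and the COPI cycle; EMC7 joined them after rescaling to the protein-coding total.

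Markers of other tissues moved in part with these genes, and their part in the result was not tested. The counts below stand beside 31.7% of all genes tested called lower and 30.8% called higher, and are descriptions only. Of 10 salivary gland markers, a tissue of high secretion, 5 were tested, 4 fell, CrebA among them, and 0 rose. Without CrebA they summed to only 64.3 to 92.3 normalized counts in libraries labelled ecd-RNAi and 147 to 271 in control libraries, and ng1 was at 0 throughout. Most of that sum in libraries labelled ecd-RNAi was sage, at 60.7 to 80.1, which was not called (log2 fold change 0.31). Sgs7, Sgs5 and Sgs8 averaged 2.1, 0.63 and 2.4 there, against 73.5, 28.0 and 25.2 in control libraries. Of 9 fat body markers 7 were tested, 1 fell and 0 rose, and the sums overlapped (647 to 5955 in libraries labelled ecd-RNAi and 1213 to 8573 in control libraries). Of 9 hemocyte markers 4 rose and 1 fell, and the sum of 10060 to 13100, against 20910 to 24720 in control libraries, was carried by the matrix gene Ppn. Of 7 tracheal markers 6 were tested, 2 rose and 3 fell (sums of 15330 to 17320, against 20520 to 21700 in control libraries). Of 6 muscle precursor markers 5 fell and 0 rose (3518 to 4136, against 5864 to 6121 in control libraries).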

How the data were processed

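For each library the authors deposited normalized counts, a signal whose values are not whole numbers. A further table that the authors deposited holds their comparison: log2 fold changes, the Wald score and p-values, per the file headers. Per the submitters' processing notes, FastQC, cutadapt 3.5, kallisto 0.46.1 and DESeq2 1.34.0 were used on BDGP6; settings and strand use: not given in the sources used here. Of 23932 rows, 5578 transposable element insertions were left out.

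The commonest low value in a library, taken as 1 read, put depth near 31130000 to 37560000 reads in libraries labelled ecd-RNAi and 29510000 to 36530000 in control libraries. On that step, 71.4% to 86.9% of low values (20 reads or fewer) were whole to within 0.1, too few for a count test. The fit used limma 3.58.1 in R 4.3.3 (mean trend, two-sided, no covariate) on log2(value + 1) in all 8 libraries, keeping genes that averaged 10 or more, and Benjamini-Hochberg adjustment over all genes tested (threshold 0.05); it was tested on simulated data. Exact permutation tests used scipy 1.17.1. Coordinates are 1-based, from the Ensembl annotation of BDGP6.

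The genes and lists were chosen with earlier results of these data known. Named are all 36 genes, up to 3 called genes of each other secretory list by absolute log2 fold change, CrebA, Xbp1 and ecd; other named genes were chosen after their values were seen. Alternatives were a pseudocount of 5, no filter, a mean of at least 100, quantile normalization, recentring on the median gene, rescaling to the protein-coding total, the replicate number as a block, leaving out each library and the authors' deposited comparison. Replicate numbers did not pair libraries across groups. The labels call the libraries biological replicates. No sequences were used here.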

Additional observations from a re-analysis of the deposited data

Results flagged for a closer look

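In 2 of 80 sets of 4 libraries looked at (the 36 genes, CrebA, Xbp1, ecd and 7SL RNA, in each group), a library stood apart from the other 3 by more than Dixon's 95% limit; chance flags about 1 in 20 such sets. Sec61gamma in ecd-RNAi replicate 3 was at 1155 normalized counts, below the 1279 to 1289 of the other libraries labelled ecd-RNAi. Sec23 in control replicate 1 was at 4263, above the 3996 to 4041 of the other control libraries.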

How the results depend on the processing

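Over 16 alternatives, 560 of 576 fold changes of single genes kept their direction and their side of the threshold, and for 31 of the 36 genes all did; the cause of the others was not tested. Quantile normalization turned Ost48 to 0.018 and beta'COP to 0.012, and left 1 of the 3 oligosaccharyltransferase genes called lower. The 36 genes called lower were 31 to 36 over the alternatives, 36 with the replicate block and 34 to 36 without 1 library; 0 were called higher in any of them. Recentring on the median moved the calls over all genes to 2285 higher and 3691 lower, from 2889 higher and 2970 lower. Rescaling to the protein-coding total, added after the data had been seen, left 35 called lower. Same-numbered libraries did not deviate together (correlations -0.05 to 0.05). Pairing by number left the Stt3A to Stt3B difference at 0.44 but at an exact p of 0.125, the smallest that 16 sign flips allow; it was 0.41 to 0.46 without 1 library, at the smallest exact p of that design, 0.0571.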
